A study of Drosophila melanogaster with 8 samples.

Results

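The genes that copy DNA and drive the cell cycle were examined in 3 Drosophila melanogaster cell lines profiled on 8 Affymetrix DrosGenome1 arrays. A gene was a member if its symbol in the array's annotation began with one of a fixed set of stems (Orc, Mcm, DNApol, PolA, PolD, PolE, Psf, RfC, RPA, Rnr, Cyc, Cdk, Cdc, E2f, Rbf) or was Sld5, PCNA or dup. The rule found 67 of the 10844 genes named on the array, and the brightest probe set on average stands for each gene. Of these, 17 act at replication origins and in the replicative helicase (origin group), 15 at the replication fork (fork group) and 11 are cell cycle cyclins, their kinases or E2f and Rbf factors (cyclin group). The other members are 4 genes of mitotic exit, 9 cyclins and kinases of transcription, and 11 genes that share only the first letters of their symbol or act elsewhere. The last set shows that the rule goes beyond its name: Orco is an odorant co-receptor, Orcokinin a neuropeptide gene, Orct and Orct2 organic cation transporters, Rbfox1 an RNA-binding protein, Cdc37 an Hsp90 co-chaperone, Cdc5 a splicing factor, Cdc50 a flippase subunit, and Cdk5 with its activator Cdk5alpha a kinase of neurons. Cdc2rk, a kinase related to Cdk1, was counted with them.

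RasV12 is a line started from embryos by expressing an oncogenic, constantly active form of Ras, and it was profiled at passage 12 on 3 arrays. L2 was profiled on 1 array and CL8 on 4, and the labels describe both only as cell lines, with no genotype, passage or tissue. Flasks were harvested at 70% confluence, a separate flask for every array. RasV12 is a single line, the sources used here do not name the promoter behind its transgene, and neither L2 nor CL8 is described as its parent or control. The p-values thus cover the spread among flasks and arrays within a line, and tests with L2, which has no replicate, borrow the spread of RasV12 and CL8.

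Replication begins where the origin recognition complex (ORC) sits on DNA. With Cdc6 and dup, the fly Cdt1, it loads the Mcm helicase, which becomes active when Cdc45 and the GINS complex (Psf1, Psf2, Psf3 and Sld5) join it. DNA polymerases alpha, delta and epsilon then copy the strands, held in place by the ring-shaped clamp PCNA that the RfC complex loads, while RPA coats single strands and ribonucleotide reductase supplies deoxynucleotides. Cyclins switch their kinases on at set times. Activating E2f1 turns on many of these genes ahead of S phase in flies, and E2f2, with Rbf or Rbf2, represses E2f targets.

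Values are GCRMA expression values on the log2 scale, so a difference of 1 is a doubling of the measured signal. The arrays of the lines do not share one distribution: the 75th percentile was 8.088 to 8.167 on the RasV12 arrays, 8.317 on the L2 array and 8.961 to 8.986 on the CL8 arrays. Each difference was therefore computed on the deposited values, again after quantile normalization (rescaled), and again with all arrays shifted to one median. Rescaling shifted the median of all probe sets by 0.13 for RasV12 minus CL8, by -0.26 for L2 minus CL8 and by 0.38 for RasV12 minus L2. A gene is called if limma's Benjamini-Hochberg adjusted p over all 13966 probe sets is under 0.05. RasV12 values were typically written with 14 decimals and L2 and CL8 values with 9, so a separate processing run and a difference of RasV12 from the other lines cannot be told apart. The highest of 23 control probe sets for transcripts foreign to flies read 3.24 to 3.47 on RasV12 arrays, 4.04 on the L2 array and 2.98 to 3.41 on CL8 arrays.

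More members were lower than higher in RasV12 and in L2 when each was set against CL8. Between RasV12 and CL8, 48 of the 67 members were called lower and 4 higher on deposited values, against 38.6% and 11.3% of all probe sets. Rescaled, 31 were lower and 15 higher, against 29.8% and 35.4%. In all 3 scalings 31 members (46.3%) were lower and 4 (5.97%) higher, where all probe sets gave 25.4% and 11.1%, and the 9610 probe sets above the foreign controls in either line gave 33.5% and 13.4%. On single scalings, those 9610 gave 52.3% lower and 13.6% higher as deposited and 35.3% and 31.8% rescaled. The median log2 difference of the members was -0.98 (-0.25 rescaled), beside -0.49 (-0.02 rescaled) over those 9610 probe sets. Probe sets above the controls thus tilted the same way on deposited values. In bulk RNA, fewer dividing cells and less RNA per cell cannot be told apart.

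Between L2 and CL8, 43 members were called lower and 7 higher as deposited, against 23.6% and 38.3% of all probe sets. Rescaled, 22 were lower and 9 higher, against 17.4% and 20.2%. In all 3 scalings 22 members (32.8%) were lower and 1 (1.49%) higher, beside 11.6% and 8.95% of all probe sets and 17.2% and 12.3% of the 9443 above the controls in either line. Those 9443 gave 34.8% lower and 28.5% higher as deposited and 22.1% and 23.7% rescaled.

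For RasV12 set against L2 the balance of calls turned with the scaling. As deposited 24 members were lower and 14 higher, beside 44.1% and 9.57% of all probe sets and 45.0% and 14% of those above the controls. Rescaled, 17 were lower and 15 higher, beside 26.0% and 22.0% of all probe sets and 29.9% and 23.9% of those above the controls. With all arrays at one median 5 were lower and 30 higher. In all 3 scalings 5 were lower and 14 higher, beside 12.8% and 9.53% of all probe sets and 17.4% and 14% of those above the controls. The shift to one median moved other genes too: the median of probe sets above the controls went from -0.47 as deposited to 0.26. Shares of all probe sets were not counted for that scaling alone. The comparisons with CL8 share its 4 arrays, so their calls are not independent of each other.

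**Figure D1:**
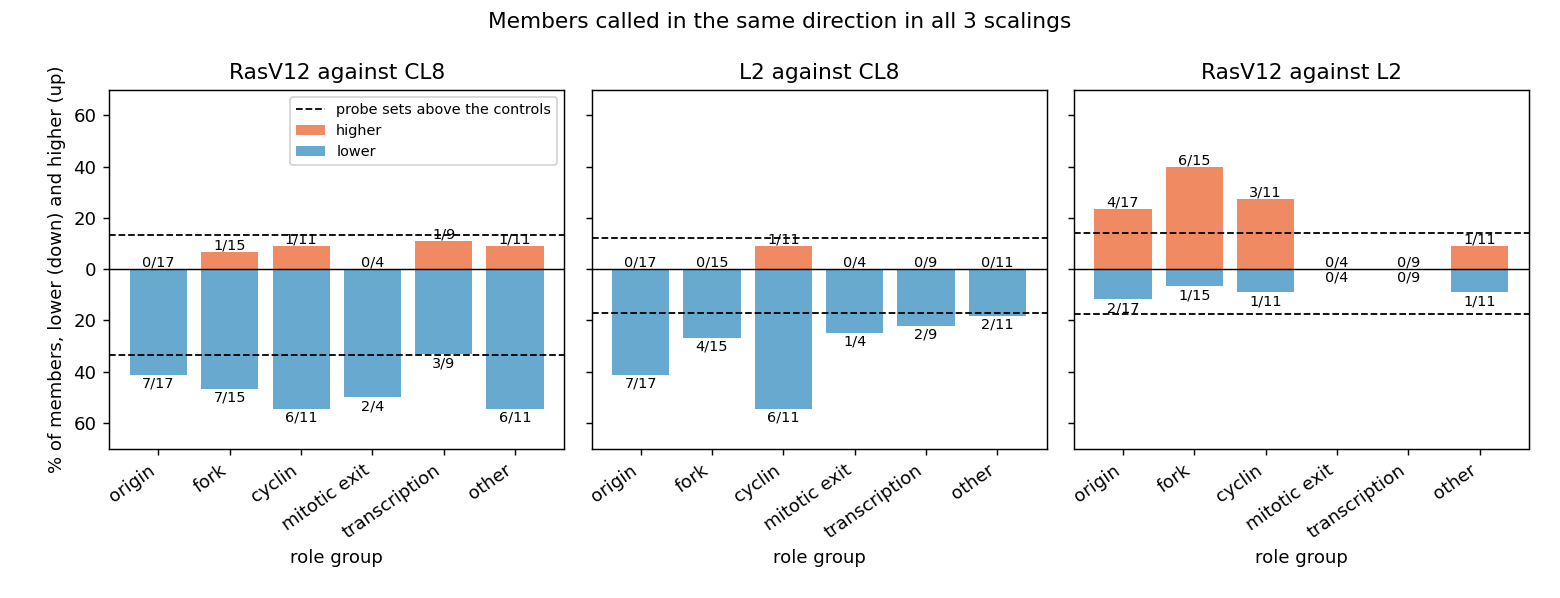
Share of each role group (vertical axis, % of its members, with the counts on the bars) called higher (upward) or lower (downward) in all 3 scalings, in 1 panel per comparison. Dashed lines give the share of probe sets above the foreign controls in either line. The 11 members outside the cell cycle reach 54.5% lower in RasV12 against CL8, as the cyclin group does.

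Origin genes were uneven, with differences from CL8 that varied widely within a complex. Against CL8, 15 of 17 (88.2%) were called lower in RasV12 as deposited and none higher, but 7 (41.2%) held in all 3 scalings. Probe sets above the controls gave 52.3% lower and 13.6% higher as deposited, and 33.5% and 13.4% in all 3 scalings. The group median was -0.98 (-0.22 rescaled), beside -0.49 (-0.02 rescaled) over those probe sets. Of the 4 ORC subunits measured, Orc2 (CG3041) stood apart. It read 3.57, 3.47 and 3.47 on the RasV12 arrays, against 7.59, 7.62, 7.39 and 7.21 on the CL8 arrays. The RasV12 values lie just above the foreign controls of their arrays, and the lines do not overlap. Orc2 differed by -3.95 ± 0.11 (standard error; -3.55 rescaled; limma adjusted p = 1.13e-07), which is 15.5-fold lower in RasV12. Orc5 was lower by a smaller step, -1.48 (-0.75 rescaled), while Orc1 at -0.91 (-0.32 rescaled) and Orc4 at -0.76 (0.07 rescaled) were called only on deposited or median-shifted values.

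The same unevenness appeared in GINS, the 4-subunit part of the active helicase. Psf2 (CG18013) read 5.42, 5.72 and 5.58 in RasV12, against 8.82, 8.83, 8.26 and 8.58 in CL8, with no overlap. Its difference was -3.05 ± 0.15 (-2.43 rescaled; limma adjusted p = 1.69e-06), 8.28-fold lower in RasV12. Psf3 read 5.60, 5.45 and 5.65 in RasV12 and 6.42, 6.52, 6.62 and 6.60 in CL8, a smaller step of -0.98 ± 0.09 (-0.53 rescaled; limma adjusted p = 3.3e-05). Psf1 and Sld5 differed by -0.58 and -0.98 and passed only before rescaling (0.19 and -0.14 after it).

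Cdc45, which joins GINS and the Mcm ring to form the moving helicase, read 6.08, 5.88 and 5.90 in RasV12, against 8.82, 8.26, 8.42 and 8.43 in CL8. It was 5.78-fold lower in RasV12, at -2.53 ± 0.14 (-1.88 rescaled; limma adjusted p = 2.24e-06). The loading factor Cdc6 was lower by -2.03 (-1.35 rescaled), though its CL8 arrays were spread from 7.51 to 8.82. Its partner dup, the fly Cdt1, read 10.15, 10.12 and 9.86 in RasV12 and 10.95, 10.86, 10.62 and 10.83 in CL8, a difference of -0.78 that became 0.04 when rescaled. Mcm10, a helicase cofactor, likewise went to 0.0 when rescaled.

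Among the 4 Mcm ring subunits that the rule matched, which are not the whole ring, only Mcm3 was lower in RasV12 in all 3 scalings, at -1.73 (-0.95 rescaled). Mcm2 and Mcm5 were called lower as deposited (-0.62 and -1.04), and Mcm2 was called the other way when rescaled (0.20). Mcm6 read 10.14, 9.91 and 9.53 in RasV12 and 9.82, 10.03, 10.39 and 10.59 in CL8. These overlap, and its difference of -0.35 ± 0.21 did not pass (limma adjusted p = 0.226). Cdc7, the kinase that fires loaded origins, read 8.55, 8.53 and 8.05 in RasV12 and 8.49, 8.45, 8.87 and 8.92 in CL8, which overlap. It differed by -0.30 ± 0.17 (limma adjusted p = 0.194) and was called higher only when rescaled, at 0.52. With CL8 arrays 1 and 2 left out, both were called lower as deposited, Mcm6 by -0.63 (limma adjusted p = 0.0178) and Cdc7 by -0.51 (limma adjusted p = 0.0289).

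In L2 the origin genes furthest below CL8 were Psf2 and Orc1. Psf2 read 3.55 on the L2 array, below its foreign controls, against a CL8 mean of 8.62 ± 0.27 (SD, n = 4), so it was at least 24-fold lower in L2 (limma adjusted p = 4e-06). The other GINS genes were well above the controls there, with Psf1 at 7.93, Psf3 at 6.91 and Sld5 at 8.28. Psf3 was called higher in L2 as deposited and rescaled (0.37 and 0.69), but the sign turned with one median (-0.30), so it has no settled direction. Orc1 read 4.38 in L2, only slightly above the controls, and differed from CL8 by -2.72 ± 0.27 (-3.01 rescaled; limma adjusted p = 0.000197). Orc2, near background in RasV12, read 6.63 in L2 and differed from CL8 by -0.83 (-0.45 and not called rescaled). Mcm3, Cdc6, Orc5, Cdc45 and Mcm2 were lower in L2 in all 3 scalings, by -2.33, -1.84, -1.29, -1.19 and -1.18 as deposited.

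**Figure D2:**
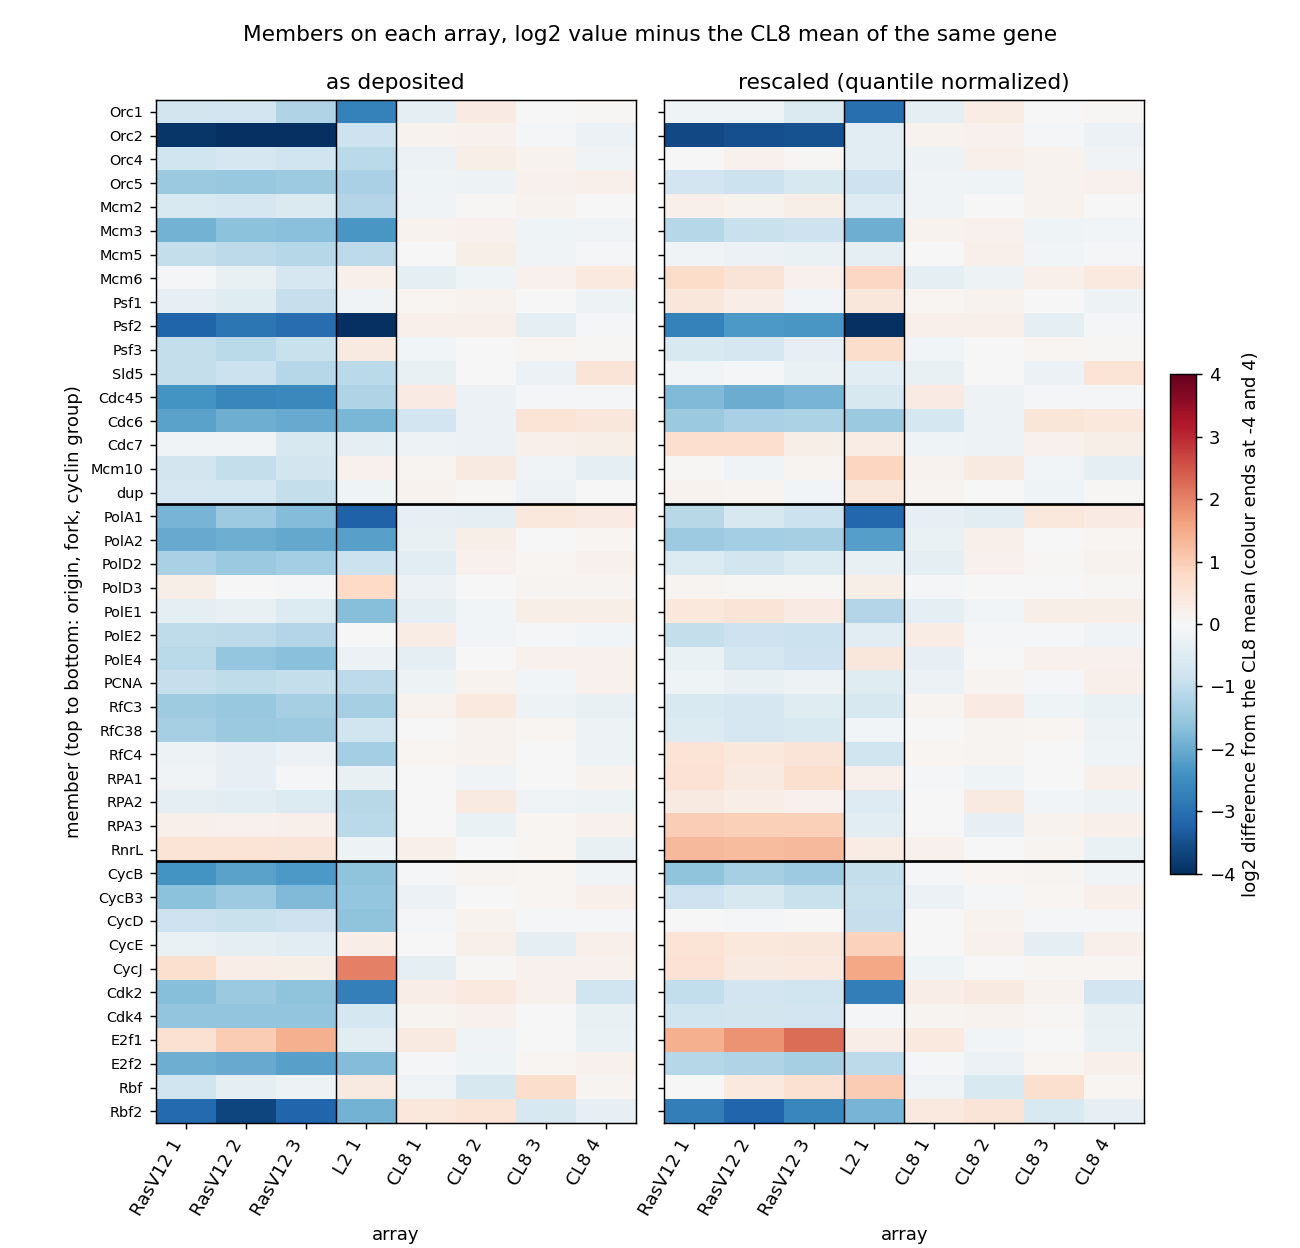
Log2 value of each origin, fork and cyclin group gene (rows) on each of the 8 arrays (columns: RasV12, L2, CL8) minus the CL8 mean of that gene, as deposited on the left and rescaled on the right. Blue is below and red above the CL8 mean. Orc2 and Rbf2 are darkest in RasV12, Psf2 in L2, and E2f1 and RnrL are red on all RasV12 arrays.

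In the fork group, 5 of 7 polymerase genes and the clamp loader genes RfC3 and RfC38 were lower in RasV12 than in CL8 in all 3 scalings, and RnrL was higher. As deposited 9 of 15 were called lower and 1 higher, in all 3 scalings 7 and 1, and the group median was -0.96 (-0.22 rescaled). Beside these stand 52.3% lower and 13.6% higher as deposited for probe sets above the controls, and 33.5% and 13.4% in all 3 scalings. The median over those probe sets was -0.49 (-0.02 rescaled). Both measured subunits of polymerase alpha, which makes primers, were among the lower genes. PolA2 (CG5923) read 5.86, 5.92 and 5.83 in RasV12, against 7.57, 8.09, 7.87 and 7.94 in CL8, 4.00-fold lower at -2.0 ± 0.12 (-1.38 rescaled; limma adjusted p = 4.29e-06). PolA1, its catalytic subunit, read 7.27, 7.68 and 7.41 in RasV12 and 8.79, 8.73, 9.54 and 9.47 in CL8. The difference was -1.68 ± 0.23 (-0.88 rescaled; limma adjusted p = 0.000381).

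Of the polymerase delta and epsilon genes, PolD2, PolE2 and PolE4 were lower in RasV12 by -1.39, -1.08 and -1.43 (-0.61, -0.89 and -0.61 rescaled). PolE1, the catalytic subunit of polymerase epsilon, differed by -0.41 (0.42 rescaled) and passed in neither. PolD3 read 3.37, 3.14 and 3.08 in RasV12, 3.92 in L2 and 2.89, 3.15, 3.23 and 3.25 in CL8, within the foreign controls in every line, so no fold is given.

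The clamp loader gene RfC38 read 9.02, 8.86 and 8.89 in RasV12, against 10.37, 10.48, 10.42 and 10.14 in CL8, with a difference of -1.43 ± 0.10 (-0.61 rescaled; limma adjusted p = 9.51e-06). RfC3 was close to it at -1.42 (-0.59 rescaled). RfC4 did not follow: it differed by -0.25 and was called higher when rescaled, at 0.48. PCNA itself read 11.48, 11.39 and 11.44 in RasV12 and 12.19, 12.54, 12.30 and 12.56 in CL8, called lower as deposited at -0.96 but not when rescaled (-0.22).

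RnrL, the large subunit of ribonucleotide reductase, was the only fork gene higher in RasV12 in all 3 scalings. It read 13.11, 13.10 and 13.08 in RasV12, against 12.77, 12.56, 12.62 and 12.26 in CL8, and the lines do not overlap. Its difference was 0.55 ± 0.12 (1.28 rescaled; limma adjusted p = 0.00536). RPA1 read 12.41, 12.23 and 12.46 in RasV12 and 12.54, 12.40, 12.55 and 12.70 in CL8, which overlap, with a difference of -0.18 (0.52 rescaled). RPA3 read 11.75, 11.73 and 11.75 in RasV12 and 11.55, 11.30, 11.64 and 11.72 in CL8, differing by 0.19 ± 0.11 (0.97 rescaled; limma adjusted p = 0.192), and RPA2 differed by -0.46 (0.26 rescaled), so no RPA gene kept a call in all 3 scalings.

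In L2 the polymerase alpha genes were the fork genes furthest below CL8. PolA1 read 5.90 in L2, against a CL8 mean of 9.13 ± 0.43 (SD, n = 4), 9.41-fold lower at -3.23 ± 0.34 (-3.13 rescaled; limma adjusted p = 0.000249). PolA2 read 5.71 in L2, against 7.87 ± 0.22 in CL8, at -2.16 ± 0.18 (-2.20 rescaled; limma adjusted p = 8.5e-05). PolE1 and RfC4 were lower in L2 in all 3 scalings by -1.72 and -1.37 (-1.17 and -0.79 rescaled). These 4 are the fork genes with a call in all 3 scalings there, 26.7% of the group beside 17.2% of probe sets above the controls. RnrL read 12.35 in L2 and did not pass against CL8 (-0.20; limma adjusted p = 0.325).

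**Figure D3:**
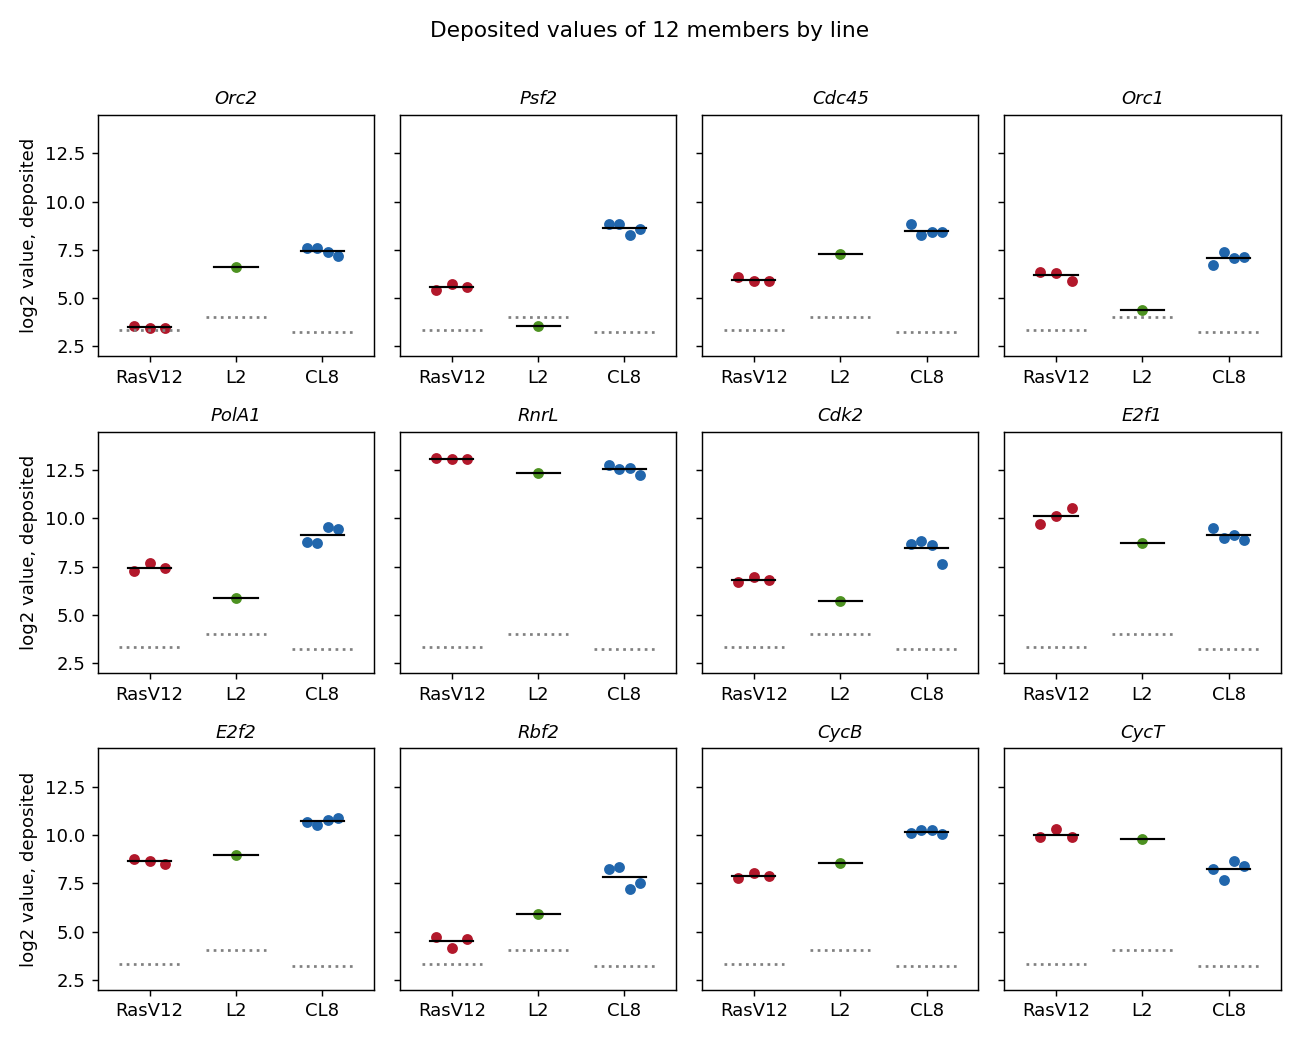
Deposited log2 values (vertical axis) of 12 members in RasV12 (3 arrays), L2 (1 array) and CL8 (4 arrays). Points are arrays, solid lines the mean of a line and dotted lines the mean over its arrays of the highest foreign control. Psf2 lies below the dotted line in L2, and Orc2 in RasV12 lies just above it.

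In the cyclin group, the factors that regulate E2f targets went in opposite directions in RasV12. E2f1, the activating E2f, read 9.73, 10.13 and 10.54 in RasV12, against 9.50, 9.0, 9.15 and 8.87 in CL8, and every RasV12 array was above every CL8 array. The difference was 1.00 ± 0.21 (1.82 rescaled; limma adjusted p = 0.00433). E2f2, the repressive E2f, read 8.77, 8.69 and 8.53 in RasV12, against 10.67, 10.53, 10.78 and 10.88 in CL8, 4.14-fold lower at -2.05 ± 0.11 (-1.23 rescaled; limma adjusted p = 2.05e-06). Rbf2, the retinoblastoma family protein that partners E2f2, read 4.71, 4.16 and 4.65 in RasV12, against 8.26, 8.38, 7.20 and 7.50 in CL8. Its difference was -3.33 ± 0.31 (-2.86 rescaled; limma adjusted p = 3.62e-05). Its paralog Rbf differed by -0.47 (0.33 rescaled) and passed in neither.

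The mitotic cyclins CycB and CycB3 and both cell cycle kinases measured were lower in RasV12. CycB read 7.79, 8.03 and 7.87 in RasV12, against 10.12, 10.28, 10.27 and 10.04 in CL8, 4.86-fold lower at -2.28 ± 0.10 (-1.46 rescaled; limma adjusted p = 8.07e-07). CycB3 was lower by -1.62 (-0.79 rescaled) and Cdk4, the partner of cyclin D, by -1.58 (-0.76 rescaled). Cdk2, the kinase of S phase entry, read 6.73, 6.96 and 6.82 in RasV12, against 8.70, 8.82, 8.62 and 7.64 in CL8, at -1.61 ± 0.27 (-0.85 rescaled; limma adjusted p = 0.0012). CL8 array 4 was the lowest of its line but still above every RasV12 array. The G1 cyclins CycE and CycD differed by less. CycE, the partner of Cdk2, read 10.07, 9.93 and 9.91 in RasV12 and 10.32, 10.53, 9.93 and 10.53 in CL8, differing by -0.36 ± 0.15 as deposited (limma adjusted p = 0.0887) and called higher when rescaled (0.48). Without CL8 array 3, the lowest of its line, it was called lower as deposited (-0.49; limma adjusted p = 0.00609). CycD differed by -0.85 and by -0.04 rescaled. As deposited 7 of the 11 genes (63.6%) were called lower and 1 (9.09%) higher, beside 52.3% and 13.6% of probe sets above the controls. In all 3 scalings 6 (54.5%) were lower and 1 higher, beside 33.5% and 13.4%. The group median was -1.58 (-0.76 rescaled), beside -0.49 (-0.02 rescaled) over those probe sets.

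In L2 the same group was mostly below CL8, with CycJ above it. In all 3 scalings 6 of 11 (54.5%) were lower in L2 than in CL8 and 1 (9.09%) higher. Probe sets above the controls gave 17.2% and 12.3%. The group median was -1.57 (-0.90 rescaled), beside -0.08 (-0.01 rescaled) over those probe sets. Cdk2 read 5.70 in L2, against 8.44 ± 0.54 (SD, n = 4) in CL8, at -2.74 ± 0.40 (-2.76 rescaled; limma adjusted p = 0.00113). CycB, CycB3, CycD, E2f2 and Rbf2 were lower in L2 by -1.62, -1.57, -1.60, -1.72 and -1.90 as deposited. E2f1 read 8.71 in L2 and did not pass against CL8 (-0.42; limma adjusted p = 0.259). CycJ, a cyclin known from early fly embryos, was the single member higher in L2 in all 3 scalings. It read 5.64 in L2, against 3.25, 3.67, 3.79 and 3.79 in CL8, at 2.02 ± 0.24 (1.53 rescaled; limma adjusted p = 0.000459). The CL8 values lie just above the foreign controls of their arrays, so the difference starts near background. In RasV12 CycJ read 4.27, 3.89 and 3.86, a difference from CL8 of 0.38 that did not pass as deposited (limma adjusted p = 0.0893). It was called higher in RasV12 rescaled (0.44) and with one median (0.45).

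**Figure D4:**
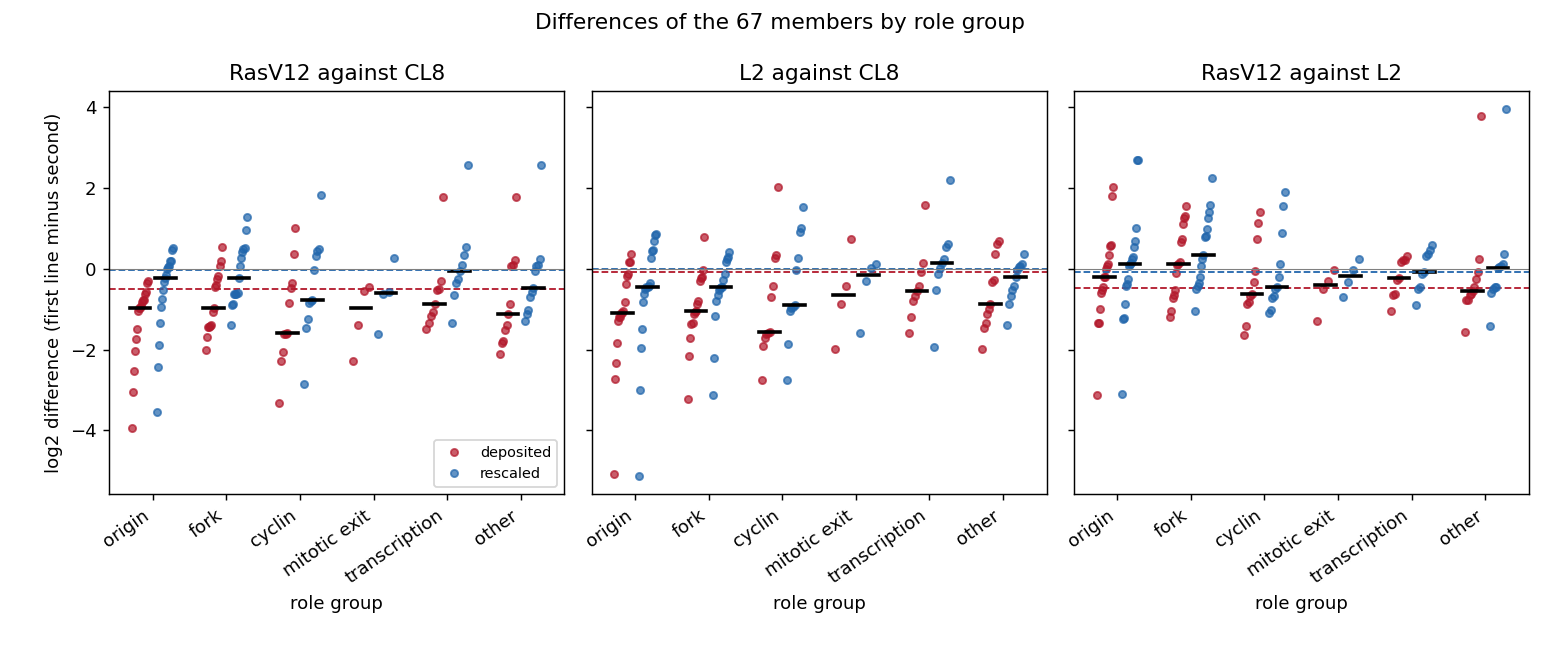
Log2 difference of each of the 67 members (points; first named line minus the second) by role group, as deposited (red) and rescaled (blue), with the group median as a black bar. Dashed lines give the median of the probe sets above the foreign controls in either line. The cyclin group has the lowest medians against CL8, at -1.58 for RasV12 and -1.57 for L2 as deposited.

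Among mitotic exit members, 2 subunits of the anaphase-promoting complex, which marks cyclin B for destruction, were lower in RasV12 in all 3 scalings. Cdc27 read 6.47, 6.07 and 6.04 in RasV12, against 8.62, 8.03, 8.67 and 8.55 in CL8, at -2.28 ± 0.18 (-1.61 rescaled; limma adjusted p = 1.6e-05), and was 6.48 in L2. Cdc16 read 7.21, 7.11 and 7.15 in RasV12, against 8.47, 8.57, 8.45 and 8.71 in CL8, at -1.39 ± 0.09 (-0.63 rescaled; limma adjusted p = 5.2e-06). The third subunit, Cdc23, was called lower as deposited (-0.44) and higher when rescaled (0.26). The phosphatase gene Cdc14 lay within the controls in RasV12 and did not pass.

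Of the 9 cyclins and kinases of transcription, 3 were lower in RasV12 than in CL8 in all 3 scalings and 1 was higher, near the 33.5% and 13.4% of probe sets above the controls. The higher one is CycT, the cyclin of the elongation factor P-TEFb. It read 9.91, 10.30 and 9.90 in RasV12, against 8.25, 7.70, 8.65 and 8.40 in CL8, 3.44-fold higher at 1.78 ± 0.22 (2.58 rescaled; limma adjusted p = 0.000203). L2 was near RasV12 at 9.82, higher than CL8 by 1.57 (2.21 rescaled), although with one median that difference no longer passed (0.90; limma adjusted p = 0.0553). Its kinase partner Cdk9 was lower in RasV12 by -1.17 (-0.35 rescaled). Cdk12, which also acts on elongating RNA polymerase, read 8.38, 8.19 and 8.14 in RasV12, against 9.73, 9.72, 9.63 and 9.79 in CL8, at -1.48 ± 0.09 (-0.64 rescaled; limma adjusted p = 3.66e-06). Cdk7, which also activates cell cycle kinases, lay within the controls in RasV12 and in L2, and its fall relative to CL8 was at least 1.96-fold in RasV12 and at least 1.2-fold in L2. CycK was lower in L2 in all 3 scalings (-1.19; -0.52 rescaled), while CycC, CycH, CycY and Cdk8 kept no call in all 3 scalings in either comparison with CL8.

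Of the 11 remaining members, 6 (54.5%) were lower and 1 (9.09%) higher in RasV12 than in CL8 in all 3 scalings. Probe sets above the controls gave 33.5% and 13.4%, and the cyclin group gave the same counts as these members. Cdc2rk read 7.20, 7.27 and 7.36 in RasV12, against 9.36, 9.44, 9.35 and 9.36 in CL8, at -2.10 ± 0.07 (-1.30 rescaled; limma adjusted p = 3.39e-07). The transporter gene Orct read 9.0, 8.94 and 9.06 in RasV12, against 10.87, 11.18, 10.78 and 10.55 in CL8. It differed by -1.84 ± 0.14 (-1.03 rescaled), and Orct2, Cdc37, Cdc5 and Cdc50 by -1.11 to -1.78. Rbfox1 was higher by 1.79 (2.56 rescaled). Cdk5 was called lower only as deposited and with one median (-0.88; -0.05 rescaled). Orco lay within the controls in every line, and Orcokinin and Cdk5alpha near them.

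RasV12 and L2 differed from each other in which replication genes were low. In all 3 scalings, 13 of the 43 origin, fork and cyclin group genes were higher in RasV12 than in L2 and 4 lower. These shares of 30.2% and 9.3% stand beside 14% higher and 17.4% lower of probe sets above the controls. On deposited values alone the split of the 43 was even, with 13 higher and 13 lower, and rescaled it was 14 and 11. Psf2 averaged 5.57 ± 0.15 (SD, n = 3) in RasV12 and read 3.55 in L2, at least 2.89-fold higher in RasV12 (limma adjusted p = 0.000388). Orc1 was higher in RasV12 by 1.81 (2.69 rescaled), PolA1 by 1.56 (2.26 rescaled), E2f1 by 1.42 (1.56 rescaled), PolE1 by 1.30 (1.59 rescaled), RPA3 by 1.27 (1.40 rescaled) and RfC4 by 1.11 (1.27 rescaled). Cdk2, Mcm2, Mcm3, RPA2, RnrL and CycD were higher in RasV12 by 0.56 to 1.13. The call of Cdk2, at 1.13, was lost without any one RasV12 array (limma adjusted p = 0.0691, 0.0955 and 0.0887) and without CL8 array 1 or 3 (0.0524 and 0.0577). Orc2 went the other way, at -3.12 ± 0.17 (-3.10 rescaled; limma adjusted p = 1.11e-05), as did CycJ at -1.63, Psf3 at -1.35 and PolE4 at -1.19. The single L2 array carries each of these differences.

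Genes of the same pathways outside the rule were counted from lists, and list names that matched no probe set, among them polo, aurA, stg, Top2 and Myc, are not analysed here. Each count stands beside the 33.5% lower and 13.4% higher in RasV12, and the 17.2% lower and 12.3% higher in L2, of probe sets above the controls in all 3 scalings. Of 37 genes of mitosis and the spindle, 22 were lower in RasV12 than in CL8 in all 3 scalings and none higher, with a median of -1.28 (-0.49 rescaled), and 8 were lower in L2. pbl, the exchange factor that starts cytokinesis, read 7.92, 8.22 and 8.27 in RasV12, against 11.50, 11.13, 11.08 and 11.13 in CL8, at -3.07 (-2.25 rescaled). The kinesin-like gene nod was lower by -2.56 (-2.04 rescaled) and the centromeric histone gene cid by -2.32 (-1.97 rescaled). Of 15 cohesin and condensin genes 4 were lower and none higher, a share lower that is under that of probe sets above the controls. They include eco, which acetylates cohesin, at -3.80 (-3.14 rescaled), san at -1.56 (-0.74 rescaled) and SMC2 of condensin at -1.52 (-0.71 rescaled).

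Of 32 genes listed as other replication factors, 11 were lower in RasV12 in all 3 scalings and 3 higher, near the shares of probe sets above the controls. Their median was -0.87 (-0.10 rescaled). The list was matched by symbol and takes in genes not known as replication factors. Among them are Slh, which is counted as lower (-1.09; -0.27 rescaled), and gem. elg1, which unloads PCNA, was lower by -2.20 (-1.58 rescaled) and the mismatch repair gene Msh6 by -1.81 (-0.99 rescaled). chif, the fly Dbf4-like partner of Cdc7, was lower by -1.81 in RasV12 (-1.05 rescaled) and read 4.29 in L2, a difference from CL8 of -4.47 (-4.64 rescaled), while Cdc7 passed on deposited values in neither line. The 3 higher genes were dre4, a subunit of the histone chaperone FACT, at 1.43 (2.21 rescaled), rad50 at 0.71 (1.49 rescaled) and the clock gene tim at 0.55 (0.62 rescaled).

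Of 16 nucleotide synthesis genes, 10 were lower in RasV12 and 1 higher, and in L2 10 were lower and none higher, each in all 3 scalings. Thymidylate synthase (Ts) was lower in RasV12 by -2.41 (-1.64 rescaled) and Prat, which opens purine synthesis, by -2.32 (-1.48 rescaled). The purine synthesis gene Gart was the higher one, at 0.93 (1.48 rescaled). su(r), which breaks pyrimidines down and so stands apart from the name of its list, read 5.61, 5.81 and 6.09 in RasV12, against 10.70, 10.70, 10.66 and 10.43 in CL8 (-4.78; -4.14 rescaled). Of 28 checkpoint and G1 control genes, 9 were lower and 2 higher in RasV12, a share lower that is near that of probe sets above the controls. rux, a cyclin A-Cdk inhibitor, was lower by -2.68 (-2.18 rescaled) and lin-52, of the complex that joins E2f2 and Rbf to target genes, by -1.92 (-1.13 rescaled). Mnt, a Myc antagonist, was higher by 2.25 (2.75 rescaled). The other, aly, known from the testis, lay within the controls in CL8 and just above them in RasV12. Its difference of 0.36 (0.39 rescaled) is thus one near background.

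The group levels spread less among the RasV12 arrays than among the CL8 arrays, and the 1 L2 array shows no spread. After centring each gene on its mean over the 8 arrays, the median of the cyclin group as deposited was -0.77, -0.54 and -0.68 on the RasV12 arrays, -0.56 in L2 and 0.56, 0.78, 0.82 and 0.38 on the CL8 arrays. The fork group read -0.43, -0.42 and -0.47 in RasV12, -0.56 in L2 and 0.29 to 0.57 in CL8. The origin group read -0.44, -0.52 and -0.63 in RasV12, -0.52 in L2 and 0.30 to 0.64 in CL8. On all 3 measures CL8 lay above the other lines without overlap as deposited. Rescaled, the RasV12 fork values of -0.02, -0.01 and -0.06 lay inside the CL8 range of -0.09 to 0.24, with L2 at -0.33. The rescaled cyclin values were -0.33, -0.09 and -0.14 in RasV12, -0.45 in L2 and -0.01 to 0.39 in CL8, and the origin values -0.01, -0.10 and -0.19 in RasV12, -0.23 in L2 and 0.02 to 0.23 in CL8, so the gap to CL8 was narrow there.

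Other measures moved with the lines too, and their part in these differences was not tested. The 3′ minus 5′ signal of the eIF-4a control, a sign of RNA integrity, was 1.07 to 1.24 in RasV12, 1.65 in L2 and 1.54 to 2.10 in CL8, while the ranges of the actin and GAPDH controls overlapped between RasV12 and CL8. Of 6 mesoderm and muscle markers 4 were above the controls in RasV12, 4 in L2 and 3 in CL8, with summed log2 values of 41.4 to 41.9 in RasV12, 31.5 in L2 and 20.3 to 23.1 in CL8. All 11 hemocyte markers were above the controls in every line, with sums of 85.4 to 87.7 in RasV12, 105.4 in L2 and 106.2 to 109.4 in CL8. They did not move together: Pxn, eater, ush and Pvr differed by -6.45, -5.87, -4.27 and -3.33 in RasV12 against CL8. The markers srp, crq and Col4a1 differed by -2.16, -1.02 and -0.98. Higher were Sr-CI, Hml, NimC1 and vkg, by 1.39, 0.83, 0.64 and 0.46, with Hml and NimC1 near the foreign controls in CL8 (means 3.47 and 3.7). Sums of 9 wing disc markers were 31.7 to 34.2 in RasV12, 39.9 in L2 and 42.8 to 43.8 in CL8, with ptc alone differing by -6.47 in RasV12 against CL8. Sums of 7 germline markers were 35.1 to 36.3 in RasV12, 38.5 in L2 and 36.9 to 40.9 in CL8. These sums hide opposite movements in RasV12 against CL8: tud differed by 3.43, and bam, ovo and aub by -2.90, -2.06 and -1.39. The germline markers piwi, otu and vas were not called as deposited.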

How the data were processed

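The authors computed the deposited log2 values with GCRMA and tested them with limma, per the series' design text; the sources used here do not say if 1 run covered all arrays. All columns were used and grouped by sample title. Leaving out 44 controls, 13966 probe sets were tested, of which 12443 had 1 gene in the platform's annotation, 327 several and 1196 none. All members matched a RefSeq gene, and 3 have more than 1 probe set.

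One limma fit (3.58.1, R 4.3.3) of all 8 arrays gave the 3 comparisons. Alternatives were 2 other scalings, left-out arrays, a filter, a variance trend, averaged probe sets and a replicate block. A line counts as above the controls if most of its arrays exceed the highest of 23 foreign controls, and a fold against a line below them is a lower bound. The number of arrays limits the precision. The fit was tested on simulated data.

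Members and lists were chosen with earlier results of these data known. Genes given on every array were, in the origin, fork and cyclin groups, the 3 with the largest RasV12 and 2 with the largest L2 difference from CL8 called both as deposited and rescaled, the 2 with the smallest RasV12 difference, and those called higher, then the 2 largest of each remaining group. dup, PCNA and the pathway genes higher in RasV12 were added after their values were seen, and pathway lists gave 3 genes each. A planned motif search was not made, and promoter sequences were not used here.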

Additional observations from a re-analysis of the deposited data

How the results depend on the processing

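Scaling was the choice that moved the results most, and the cause of the unequal distributions was not tested. Rescaled, 15 members were called higher and 31 lower in RasV12 against CL8, and 22 lower in L2 against CL8. With all arrays shifted to one median, 8 were higher in RasV12 against CL8 and 1 in L2 against CL8, and RasV12 against L2 turned to 30 higher and 5 lower. Testing only probe sets above the controls left 4 higher in L2 against CL8. Group medians (origin, fork, cyclin) rescaled were -0.22, -0.22 and -0.76 for RasV12 against CL8 and -0.45, -0.45 and -0.90 for L2 against CL8. With one median the last 3 were -1.76, -1.72 and -2.24. Probe sets above the controls moved with that shift as well. Their median became -0.43 for RasV12 against CL8, -0.75 for L2 against CL8 and 0.26 for RasV12 against L2. As deposited it was -0.49, -0.08 and -0.47. For RasV12 against L2 the origin median of -0.19 became 0.13 rescaled and 0.55 with one median, the fork median of 0.12 became 0.34 and 0.85, and the cyclin median of -0.62 became 0.12 with one median. Leaving out CL8 arrays 1 and 2 gave a cyclin median of -1.29 for RasV12 against CL8, and leaving out 3 and 4 a fork median of -0.95 for L2 against CL8. Rescaling turned the sign of 16 of the 67 members' differences in RasV12 against CL8, 13 in L2 against CL8 and 9 in RasV12 against L2, and one median that of 0, 8 and 25. Named members that turned and passed the threshold in at least 1 of the fits compared were, when rescaled, Cdc7 (0.52), RPA1 (0.52) and CycE (0.48) in RasV12 against CL8 and Cdk12 (0.25) in L2 against CL8. With one median they were Psf3 (-0.30) in L2 against CL8 and, in RasV12 against L2, RfC38 (0.10), PolD3 (0.0), CycB (0.07), E2f2 (0.41), Cdc16 (0.22) and Cdc2rk (0.10). Leaving out single arrays gave 47 to 50 members lower and 4 higher in RasV12 against CL8, 42 to 43 and 5 to 8 in L2 against CL8, and 21 to 25 and 11 to 14 in RasV12 against L2. RasV12 and CL8 arrays share sample numbers 1 to 3, whose deviations correlated at -0.245, -0.098 and -0.088, beside -0.0747 to 0.176 for unlike numbers. Deviations from the mean of so few arrays constrain each other, so these values cannot decide whether the numbers pair the arrays. The fit with the replicate block called the same counts, 4 higher and 48 lower. Over the 27 named members, 1106 values under the alternatives kept their direction and side of the threshold, 26 lost the call, 23 gained it, 11 changed sign with a call in at least 1 fit and 19 changed sign with a call in neither.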

Other observations

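Of the 3 members with a second probe set, Rbfox1 had the same direction on both, at 2.12 on the dimmer one for RasV12 against CL8 (limma adjusted p = 0.000246) and -1.95 for L2 against CL8 (limma adjusted p = 0.00536). The dimmer probe sets of Cdc7 and RPA1 did not pass in either comparison, and that of Cdc7 ranged from 4.03 to 6.82 over the CL8 arrays.

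CL8 arrays 1 and 2 differed from arrays 3 and 4 in several members. Cdc6 read 7.51 and 8.05 on the first pair and 8.82 and 8.73 on the second, PolA1 8.79 and 8.73 against 9.54 and 9.47, and Rbf2 8.26 and 8.38 against 7.20 and 7.50. The 18S rRNA control read 10.13 and 9.50 on the first pair and 15.33 and 14.53 on the second. The labels name no batch, and these genes were picked after their values were seen.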
